A study of Mus musculus with 2 samples.

Results

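Within the CTCF binding map of mouse embryonic stem cells (ESCs), 101 summits lay in CpG-rich DNA away from gene starts. They are 0.304% of the 33226 summits on chromosomes 1 to 19 (Wilson 95% interval 0.250 to 0.369). A summit is the position where the sequenced tags of a peak pile up highest. The study had called the summits from tags of the same libraries that are counted below. Among these summits, the members were chosen by sequence and annotation. The 300 bp of mm9 centred on the summit had at least 60% GC and an observed over expected CpG ratio of at least 0.6, which is the number of CpG dinucleotides divided by the number that the C and G content predicts. In addition, the summit lay more than 1 kb from every gene start of GENCODE M1. Another 148 summits met the same sequence rule within 1 kb of a gene start, and 30889 summits lay away from gene starts without meeting it. Just inside the rule were 7 members at 60% GC, 1 at a CpG ratio of 0.601 and 1 at 1016 bp from a gene start. Just outside were 6 summits at 59.7% GC, 1 at a ratio of 0.596 and 1 at 980 bp.

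CTCF is a zinc finger protein that binds a long, CpG-containing motif and is known for insulator function and, together with cohesin, for chromatin loops. Most CpG dinucleotides of the mouse genome are methylated and have been depleted over evolution, whereas CpG islands are short stretches that kept them and mostly mark gene promoters. CpG islands away from annotated gene starts can be unannotated or alternative promoters, enhancers, exons or imprinting control regions, and methylation of the CpG in the motif is known to block CTCF binding at some sites. Methylation was not measured in these data.

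The study used an R1/E mouse ESC line, grown without feeder cells, with a bacterial artificial chromosome that expressed CTCF fused to LAP, a GFP-containing tag, beside the endogenous genes. Chromatin crosslinked with 1% formaldehyde was precipitated with a goat antibody to GFP in 1 library (CTCF) and with goat IgG in the other (IgG), which the labels also call input DNA. There was 1 library per antibody, so the intervals below cover counting error only, and every test compares these 2 libraries and not conditions. The cells were antibiotic resistant clones sorted for GFP, and only the tagged protein was precipitated. The CTCF library held 8391191 tags and the IgG library 7988889. Tags are counted within 150 bp of a summit after a shift of 92 bp toward the fragment centre.

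To show what the bound DNA looks like, the best CTCF motif of the highest scoring members is printed with 5 bases on each side. Of the 10 highest scoring members, the fifth has no motif at p 1e-05 and the third, with a motif of 22.7 bits, is not printed. The motif matrix was built from 192 CTCF motif sequences that the study lists for binding sites of RAD21, a cohesin subunit, in ESCs. The paper reports that most RAD21 sites overlap its CTCF sites, so matrix and summits are not independent. The matrix is 19 bases long and has the consensus in the first line. Capitals mark the motif, sequences are mm9 read 5′ to 3′ on the strand of the motif, and the names give the gene that holds the summit or has the nearest start.
CTCF matrix consensus: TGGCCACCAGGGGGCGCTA
Acbd4 UTR (chr11:102964121-102964149, plus strand): gtgggTTTCCACCAGGGGGCGCGAggact
Wnt2b upstream (chr3:104795832-104795860, plus strand): acgtcCGAACACCAGGGGGCGCGAgcaac
Gdf15 coding exon (chr8:73153786-73153814, minus strand): ggtagCCGCCGGCAGGGGGCGCCGaagcg
Yy1 upstream (chr12:109996221-109996249, minus strand): aagagACGCCAGCAGGAGGCGCCAcgggg
Chpf coding exon (chr1:75474144-75474172, plus strand): gtgttGCTCCAGCAGGTGGCGCAGcgcca
Pik3r2 exon (chr8:73293446-73293474, minus strand): tctccTGCTCACCAGGGGGCGCTCgtgcg
Zfp286 intron (chr11:62570583-62570611, plus strand): ctgtgTGCCCGGCAGAGGGCGCTCggtga
Trpv4 upstream (chr5:115117721-115117749, minus strand): ccgcgTGTCCGGTAGGTGGCGCTGtccgc

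Each of these 8 words holds at least 1 CpG, and in each of them a CpG sits at positions 15 and 16 of the motif. Longer stretches are printed for the member with the most CpG, in an intron of 1700081L11Rik, and for the member with the most CTCF motifs, upstream of Tac4, where all 3 motifs are in capitals.
1700081L11Rik intron (chr11:104303672-104303810, plus strand): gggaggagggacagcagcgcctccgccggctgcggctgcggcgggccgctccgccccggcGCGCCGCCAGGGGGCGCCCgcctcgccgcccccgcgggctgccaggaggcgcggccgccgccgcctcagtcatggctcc
Tac4 upstream, plus strand shown (chr11:95120547-95120658, plus strand): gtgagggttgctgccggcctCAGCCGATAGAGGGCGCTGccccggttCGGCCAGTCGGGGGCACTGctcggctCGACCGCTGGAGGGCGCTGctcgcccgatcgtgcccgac

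The tallest member without a motif at the loose threshold of p 1e-04, upstream of Nsd1, is shown over its whole 300 bp with each CpG in capitals, followed by the best word of the next tallest such member, near 4731417B20Rik, in capitals with 20 bases on each side.
Nsd1 upstream (chr13:55291685-55291984, plus strand): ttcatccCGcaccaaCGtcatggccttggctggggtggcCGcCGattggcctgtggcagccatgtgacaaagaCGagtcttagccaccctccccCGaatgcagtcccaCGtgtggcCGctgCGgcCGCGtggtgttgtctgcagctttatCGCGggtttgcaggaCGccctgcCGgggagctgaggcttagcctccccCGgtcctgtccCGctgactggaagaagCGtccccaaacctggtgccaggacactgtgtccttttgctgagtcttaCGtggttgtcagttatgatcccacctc
4731417B20Rik upstream (chr5:137099310-137099368, minus strand): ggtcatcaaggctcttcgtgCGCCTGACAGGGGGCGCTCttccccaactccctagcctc

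At the 101 members together there were 1484 CTCF tags and 41 IgG tags. Single members had 6 to 50 CTCF tags with a median of 12, and 0 to 3 IgG tags with a median of 0. The IgG library had no tag at 68 members, 1 tag at 26 and 2 or 3 tags at 7. Hence, the CTCF count was above the IgG count at every member. Scaled to library depth, CTCF tags were 34.5 times IgG tags (exact 95% interval 25.3 to 48.2). With an exact binomial test per summit, two-sided and adjusted by Benjamini-Hochberg over all summits, 98 of the 101 members (97.0%) had an adjusted p under 0.05 with CTCF higher. The background for this count is high, because 94.9% of all summits passed the same test and the summits were placed by the study on the same tags, so the members' share is read as a description only. The 3 members that did not pass were in a coding exon of Mon1a with 10 CTCF and 3 IgG tags (adjusted p = 0.0956), between genes with Fam167b nearest with 8 and 2 tags (adjusted p = 0.112), and between genes with Micall2 nearest with 6 and 1 tags (adjusted p = 0.127), all by the exact binomial test.

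**Figure D1:**
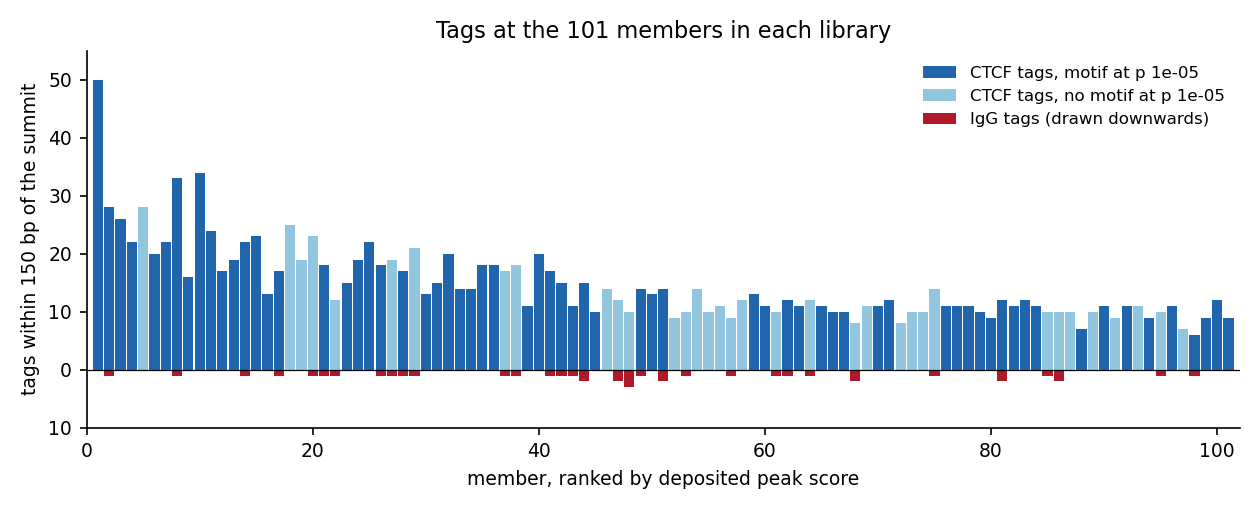
CTCF tags (upwards, dark with and light without a CTCF motif at p 1e-05) and IgG tags (downwards) within 150 bp of each of the 101 members, ranked by the deposited peak score. CTCF tags run from 6 to 50 and IgG tags from 0 to 3.

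The deposited peak score, which is -10 times the log10 of the MACS p-value, ran from 50.4 to 538 among the members. Its median was 85.4 (order-statistic 95% interval 75.7 to 118), against 119 (118 to 120) at the other summits away from gene starts. A score of at least 100 was reached by 43.6% of the members and 60.1% of the other distal summits, a difference of -16.5 percentage points (Newcombe 95% interval -25.8 to -6.78). The members therefore had lower scores than the rest of the distal map. They scored higher than CpG-rich summits at gene starts, of which 29.1% reached 100 (difference 14.5 points, 2.42 to 26.3). The median pileup height was 12 tags (10 to 13), between the 13 tags of the other distal summits and the 11 tags (10 to 11) of CpG-rich summits at gene starts. Peaks with a member were 326 to 1725 bp wide with a median of 740 bp (653 to 790), narrower than the 841 bp (838 to 844) elsewhere away from gene starts. At CpG-rich summits at gene starts the peaks were narrower still, with a median of 590 bp (573 to 618). Of the members, 11 reached a height of 20 tags and 25 stayed under 10.

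The highest scoring member, in a UTR of Acbd4, an acyl-CoA binding protein, had 50 CTCF and 0 IgG tags, a score of 538 and a height of 45 tags (adjusted p = 4.15e-12 by the exact binomial test). It lay 1138 bp from the gene start and 201 bp from the start of an annotated transcript. It stood apart, as the next score was 410 and no other member had more than 34 CTCF tags. The second member lay 31211 bp upstream of Wnt2b, which encodes a secreted Wnt ligand, with 28 CTCF tags and 1 IgG tag. The third, between genes on chromosome 18 with Psd2 as the nearest coding gene, had 26 and 0 tags. The ranks 4 and 5 were in coding exons of secreted proteins. The summit in Gdf15, a stress-induced cytokine of the TGF-beta superfamily, had 22 and 0 tags, and the summit in Vwf, the von Willebrand clotting factor, had 28 and 0. The Vwf member was the 1 among the top 10 without a motif at p 1e-05, with a best word of 10.3 bits against a threshold of 13.1, and it lay 55 bp from the start of an annotated transcript although the gene start is 56721 bp away. The sixth member, 34827 bp upstream of Yy1, which encodes a zinc finger factor itself implicated in chromatin looping, had 20 and 0 tags. In a coding exon of Chpf, which acts in chondroitin synthesis, 22 and 0 tags were counted. The summit in an exon of Pik3r2, a regulatory subunit of phosphoinositide kinase, had 33 and 1 tags and lay 102 bp from a transcript start. The summit in an intron of Zfp286 had 16 and 0 tags, and the one 9301 bp upstream of Trpv4, which encodes a cation channel, had 34 and 0. Thus in 8 of the first 10 members the IgG library had no tag at all.

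With the IgG tags so few, the comparison of members with other summits turned on both libraries separately. Members had 14.7 CTCF tags per summit and other distal summits 16.2, a ratio of 0.906 (exact 95% interval 0.861 to 0.954). The medians per summit were 12 (11 to 14) and 15 (14 to 15) tags, and both classes had been selected on these tags when the peaks were called. In the IgG library the members had 0.406 tags per summit and the other distal summits 1.08, a ratio of 0.374 (0.268 to 0.508). So the members were slightly lower in CTCF tags and much lower in IgG tags. The CTCF to IgG ratio, 34.5 at the members and 14.2 (14.1 to 14.4) at the other distal summits, was accordingly 2.42 times as high at the members (1.78 to 3.30). CpG-rich summits at gene starts had a ratio of 32.4 (24.8 to 43.2), which differed from that of the members by a factor of 1.06 with an interval of 0.706 to 1.60. The IgG density at the members was 0.419 of the genome mean (Poisson 95% interval 0.301 to 0.568), against 1.12 at the other distal summits. At CpG-rich summits at gene starts it was 0.383 (0.289 to 0.499), so low IgG tags were not particular to the members. Compared with these summits, members had 1.09 times the IgG tags per summit (0.711 to 1.67) and 1.16 times the CTCF tags (1.08 to 1.24).

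**Figure D2:**
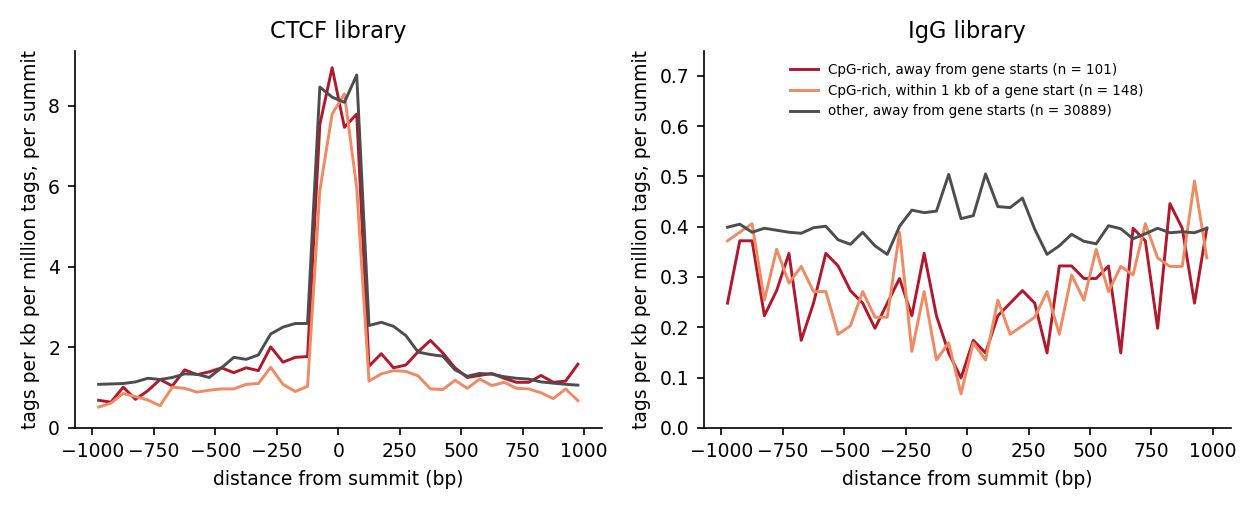
Tags per kb, scaled to library depth, in 50 bp bins within 1000 bp of the summits, for the CTCF library (left) and the IgG library (right). In the bins at 25 bp the CTCF profiles of the 3 classes are of like height, whereas IgG tags dip at CpG-rich summits. At -75 and 75 bp, CTCF tags are lower at CpG-rich summits at gene starts (5.89 and 5.96) than at other distal summits (8.46 and 8.76). At -125 and 125 bp, members have 1.77 and 1.53 and other distal summits 2.59 and 2.54. Summits were placed where tags pile up, which fixes the block of CTCF tags within 100 bp.

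The low IgG count moved with GC content outside peaks too. In 300 bp windows that touch no deposited peak, IgG tags fell from 1.12 times the mean of all windows at 40 to 45% GC to 0.337 times at 60 to 65%, 0.176 times at 65 to 70% and 0.0897 times above. CTCF tags fell less, to 0.705, 0.522 and 0.327 times the mean. The CTCF to IgG ratio therefore rose without any peak, from 0.893 over all windows to 1.87, 2.64 and 3.26 in the 3 highest GC bins. The GC bins took windows whether or not their sequence occurs once on the chromosomes used. Among windows of the members' rule outside peaks, IgG density was 0.179 of the genome mean. In those at least 90% unique, a measure explained with the motifs below, it was 0.266. CTCF density was 0.460 and 0.720, and the CTCF to IgG ratio 2.58 and 2.72. How much of the fall in each GC bin came from sequence that is not unique was not tested. Among summits away from gene starts, whatever their CpG ratio, the CTCF to IgG ratio rose from 12.9 (12.7 to 13.2) at 40 to 45% GC to 22.3 (19.2 to 25.9) at 60 to 65%. Above 65% it was 50.2 (25.3 to 117). The last 2 bins held 304 and 34 summits. The members were among them, 73 of the 304 and 28 of the 34, and those 28 had 7 IgG tags in all. This rise is therefore partly the members' own ratio. Against 12241 windows that met the members' own rule outside peaks, where the ratio was 2.58 (2.46 to 2.72), the ratio at the members was 13.3 times as high (9.75 to 18.3). The same quotient for the other distal summits, against all windows outside peaks, was 15.9 (15.8 to 16.1). With each class measured against its own background, the members' ratio was 0.838 times that of the other distal summits (0.612 to 1.15), in place of 2.42. The 2 backgrounds were not chosen alike, as the other distal summits were set against windows of any GC content and any place. Both quotients also set called peaks against windows selected for having none. The value of 0.838 and its interval therefore cannot say whether members and other distal summits differ. Within the members, the 28 with at least 65% GC had 13.0 CTCF and 0.250 IgG tags per summit, and the 73 with less GC had 15.4 and 0.466.

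**Figure D3:**
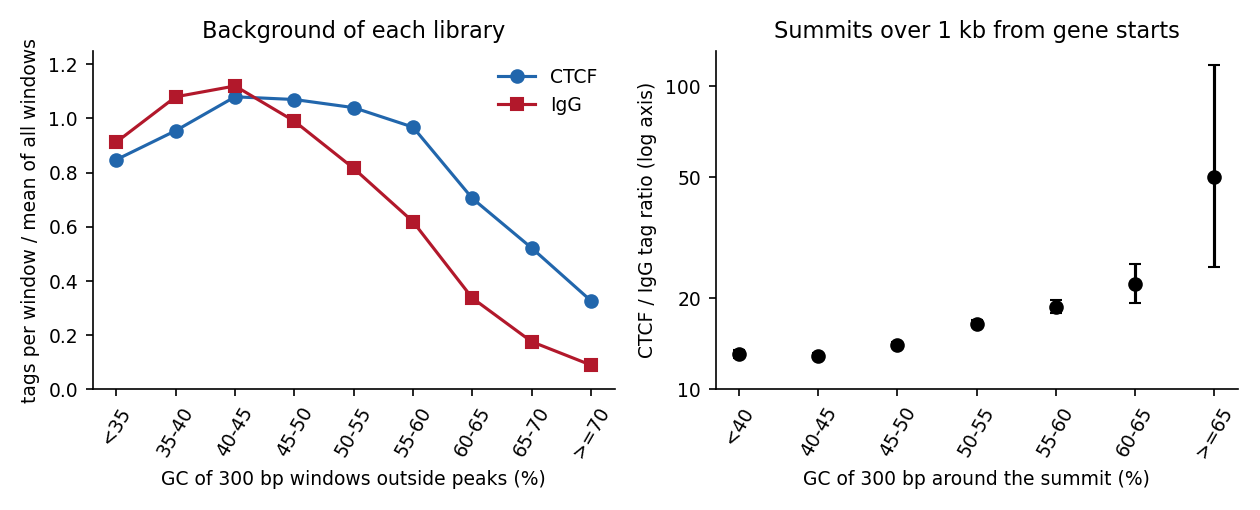
Left, tags per 300 bp window outside peaks, unique or not, relative to the mean of all windows, by GC content, for each library. Right, CTCF to IgG tag ratio at summits more than 1 kb from gene starts by GC content, on a log axis with exact 95% intervals. Above 45% GC, IgG tags drop faster than CTCF tags, and the ratio at summits, 13.1 below 40% GC and 12.9 at 40 to 45%, climbs to 50.2.

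A CTCF motif at p 1e-05 was found in the 300 bp of 66 of the 101 members, 65.3% (55.7 to 73.9). In the windows of the same rule outside peaks it was found in 5.72%, and in 8.35% of those 7254 in which at least 90% of the 32-mers occur once on the chromosomes used. The difference from the latter was 57.0 percentage points (47.3 to 65.6), so members held a CTCF motif far more often than other CpG-rich DNA. Among the other distal summits 73.5% held a motif. The difference of -8.13 points (-17.8 to 0.452) did not exceed counting error, and it depended on the threshold. At p 1e-04 members were above the other distal summits, 94.1% against 84.4% (9.65 points, 3.22 to 12.9), and at p 1e-06 they were below, 44.6% against 55.1% (-10.6 points, -19.9 to -0.841). The looser threshold was also passed by 37.6% of the CpG-rich windows outside peaks. All thresholds take 0.21 as the frequency of C and of G, which is less than in CpG-rich DNA. No share was counted in windows with the GC content of the other distal summits. Unlike rates of random matches were thus not removed from the differences between these classes. CpG-rich summits at gene starts held a motif at p 1e-05 in 64.9% of cases, a difference of 0.482 points with an interval of -11.6 to 12.2. At least 2 motifs were found at 8.91% of the members and 2.98% of the other distal summits (difference 5.93 points, 1.77 to 13.1), and at 4.73% of the CpG-rich summits at gene starts (4.18 points, -2.10 to 11.7).

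**Figure D4:**
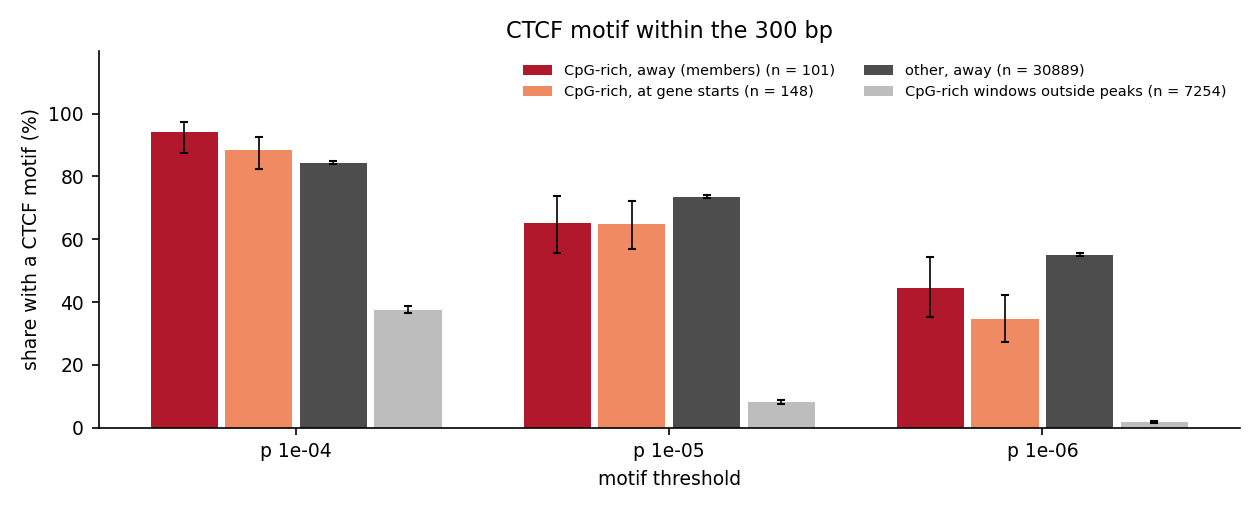
Share of summits or windows with a CTCF motif in 300 bp at 3 thresholds, with Wilson 95% intervals. The order of members and other distal summits turns between p 1e-04 (94.1% and 84.4%) and p 1e-06 (44.6% and 55.1%), and CpG-rich windows outside peaks are lowest at each.

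Motifs of the members lay close to the summit. The median distance from the motif centre was 33.0 bp, against 52.0 bp at other distal summits and 27.5 bp at CpG-rich summits at gene starts. When a motif centred within 50 bp was required, 46.5% of the members and 36.7% of the other distal summits had one (difference 9.82 points, 0.385 to 19.5). The motif itself scored 18.4 bits in the median member with a motif (17.8 to 19.6) and 19.2 bits at the other distal summits (19.2 to 19.3), so the intervals overlapped. The motif was on the plus strand in 29 of the 66 members with one.

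The motifs of the members were rich in CpG, which the rule favours, as the motif is part of the 300 bp. At least 1 CpG was in the motif of 61 of the 66 members (92.4%) and in 38.4% of those of the other distal summits. At positions 15 and 16, which the consensus fills with a CpG, 54 members (81.8%) and 30.9% of the other distal summits had one. At positions 5 and 6, where the consensus has none, a CpG was found in 34.8% of the members and 2.82% of the others, as in the Gdf15, Zfp286 and Trpv4 motifs above. CpG-rich summits at gene starts had 77.1% and 36.5% at these positions.

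The members with the best motifs were not the ones with the highest scores. The best motif, of 25.0 bits, belonged to a member in an exon of Map3k6, a stress kinase, with 12 CTCF and 2 IgG tags and a score of 63.0. This member lay 71 bp from a transcript start. The next motif, of 24.1 bits, was in an intron of Gorasp2, a Golgi stacking protein, at a member with 11 and 0 tags. Members at 23.7 bits lay between genes, with Cd83 and Dyrk1a as the nearest coding genes, and had 12 and 0 and 19 and 0 tags. The fifth, of 23.4 bits, had 14 and 2 tags and was also the member farthest from any gene start, 95637 bp from Oxgr1. Over all members, those with a motif had 15.6 CTCF tags and 0.288 IgG tags per summit and a median score of 110, and the 35 without had 12.9 and 0.629 tags and a median of 79.5.

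Of the 35 members without a motif at p 1e-05, 29 had one at p 1e-04 and 6 had none. The tallest of the 6, 19308 bp upstream of Nsd1, which encodes a histone methyltransferase, had 21 CTCF tags and 1 IgG tag (adjusted p = 5.48e-05 by the exact binomial test), although its best word scored only 3.27 bits. Next came the member 8046 bp from 4731417B20Rik with 12 and 1 tags. Its best word, printed above, scored 4.88 bits and holds the stretch of G followed by CGC that ends the consensus, but departs from it at earlier positions. A member 5886 bp from Gm9978 had 14 and 0 tags, and one in a coding exon of Eml2, which encodes a microtubule-associated protein, had 9 and 0. Hence, the CTCF tags at 3 of these 4 were within 9 to 14, near the members' median of 12.

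The most CpG-dense member, in an intron of 1700081L11Rik and 170 bp from a transcript start, had 46 CpG in 300 bp, 77.0% GC and 11 CTCF tags with 0 IgG tags. Next were members in a UTR of C87436 with 38 CpG and 12 and 1 tags, and 2291 bp upstream of Tac4, a tachykinin gene, with 37 CpG and 13 and 0 tags. Members in an exon of Atn1, which encodes the corepressor atrophin, and in a coding exon of Apold1 had 32 CpG each and 10 and 0 tags each. The Atn1 member lay 61 bp from a transcript start. The CTCF tags of these most CpG-dense members, 10 to 13, were thus near the members' median of 12. Over the 101 members the count ran from 14 to 46 CpG with a median of 22, where other distal summits had a median of 3. The rule sets this gap, as it selects for CpG in the same 300 bp. The CpG ratio ran from 0.601 to 1.07. The CpG-rich stretch around a member, in which every 300 bp window meets the sequence rule, was 300 to 1510 bp long with a median of 540 bp, shorter than the 785 bp (710 to 830) at gene starts, and 5 members lay in a stretch of at least 1000 bp. Members in stretches under 500 bp and above had 16.0 and 13.8 CTCF tags per summit and a motif in 64.3% and 66.1% of cases.

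Members lay in exons more often than other distal summits. Coding exons held 29 members (28.7%), UTRs 6, exons of non-coding transcripts 6, introns 19 (18.8%), and 41 (40.6%) were intergenic. Exons of any kind held 40.6% of the members and 5.10% of the other distal summits (difference 35.5 points, 26.4 to 45.2), and introns held 18.8% against 46.5% (-27.7 points, -34.2 to -19.0). Compared with CpG-rich windows outside peaks that were at least 90% unique, however, the exon share was not higher, with 46.6% in the windows (difference -6.03 points, -15.2 to 3.79). Over all such windows, 27.9% of which had under 10% unique 32-mers, the exon share was 28.7% and the difference turned to 11.9 points (2.76 to 21.6). All 101 members were at least 94.0% unique. The intergenic share of 40.6% also depended on the windows, with 21.2% in the unique ones (19.4 points, 10.3 to 29.2) and 40.9% in all of them (-0.318 points, -9.42 to 9.47). Members were less often intronic than either, with 32.2% in the unique windows (-13.4 points, -19.9 to -4.63) and 30.3% in all (-11.5 points, -18.0 to -2.79). Windows of 1 CpG island are neighbours and share its place, which these intervals do not include.

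**Figure D5:**
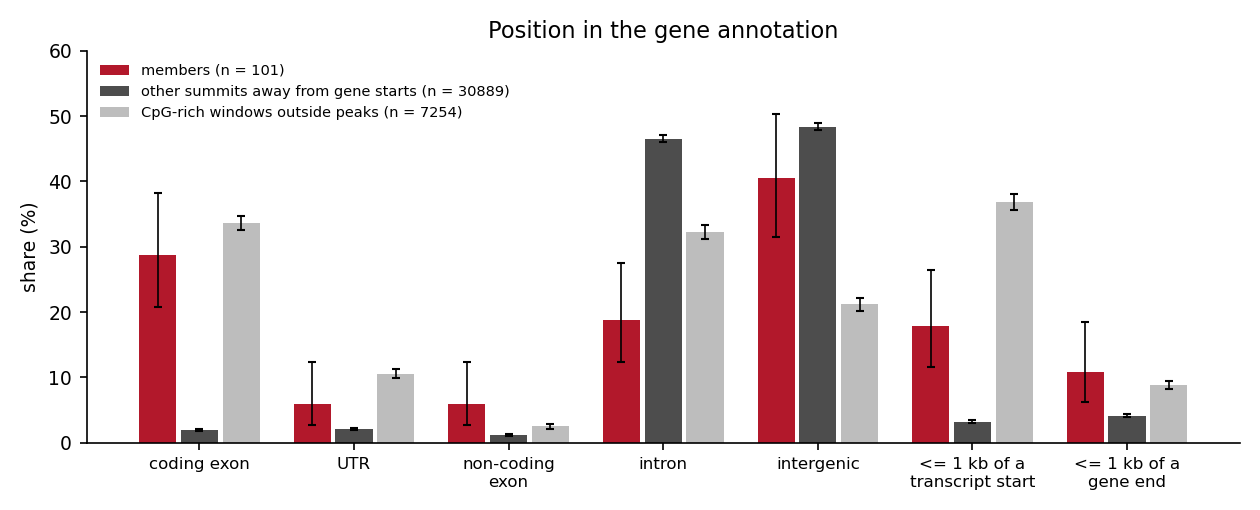
Share of members, other summits away from gene starts and unique CpG-rich windows outside peaks in each part of the annotation, with Wilson 95% intervals. Members and unique windows have 28.7% and 33.6% in coding exons and 40.6% and 21.2% between genes. Over all windows outside peaks, not drawn, these shares are 20.7% and 40.9%, so both comparisons turn on the windows used.

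Distance from gene starts did not mean distance from every transcript. Within 1 kb of the start of an annotated transcript lay 18 members (17.8%, 11.6 to 26.4), and 9 of them lay within 100 bp. This was more than at other distal summits, with 3.23% (14.6 points, 8.35 to 23.2), and less than in the unique CpG-rich windows outside peaks, with 36.8% (-19.0 points, -25.4 to -10.4). Over all such windows the share was 22.8%, and the difference of -4.99 points (-11.3 to 3.64) did not exceed counting error. Examples chosen after their values were seen are a member in an intron of Tcfap2c, which encodes a developmental transcription factor, 44 bp from a transcript start with 11 and 0 tags, one in an intron of Grin2c, an NMDA receptor subunit, at 6 bp with 11 and 0 tags, and one in an intron of the kinase gene Src, at 580 bp with 23 and 0 tags. The 18 members near a transcript start had 17.2 CTCF tags per summit and a motif in 66.7% of cases, and the other 83 had 14.2 tags and a motif in 65.1%. Gene ends were within 1 kb of 10.9% of the members and 4.13% of the other distal summits (6.76 points, 2.05 to 14.3), but also of 10.8% of the CpG-rich summits at gene starts (0.0803 points, -7.56 to 8.66) and 8.81% of the unique windows (2.08 points, -2.67 to 9.67).

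The members were spread over the genome. Each of the chromosomes 1 to 19 held at least 1, with most on chromosome 2 (11 members), and 2 members were never closer than 27156 bp to each other. The median distance to a gene start was 6294 bp (4410 to 8072), against 17743 bp at other distal summits, and 8 members lay farther than 50 kb. Besides the one near Oxgr1, the farthest were 93629 bp from Gm15971 and, in an intron of Runx1, a regulator of blood formation, 85972 bp from Gm16801. Annotated transcripts started closer, 45110 bp from the former and 1458 bp from the latter member. Another CTCF summit lay within 10 kb of 61.4% of the members and 47.2% of the other distal summits (14.2 points, 4.43 to 23.1). Among summits at 1 to 5, 5 to 20 and over 20 kb from a gene start, the differences were 6.27 (-8.53 to 19.3), 12.9 (-3.65 to 26.4) and 14.7 points (-5.22 to 33.2), so none of the 3 exceeded counting error by itself.

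Lists of genes known for CpG-rich regulatory DNA were compared with the members, without a test. Of 29 imprinted genes found in the annotation, none had a member within 20 kb of its body, and neither had any of 39 Hox genes, where 0 of 101, taken as 3 counts at most, allows a share of up to 2.97%. At the shares of all summits, 0.150% and 0.0572%, a count of 0 among 101 says little. Other distal summits near these lists numbered 46 (0.149%) and 12 (0.0388%). A list of developmental transcription factors held 166 genes. It took families by name such as Pax, Sox, Fox, Gata, Lhx and Onecut and leaves out others such as Runx and Tcfap. Near its genes lay 2 members (1.98%), against 0.975% of all summits and 0.949% of the other distal summits. Among all 12241 CpG-rich windows outside peaks, unique or not, the share was 3.82%. The 2 members were a summit 4263 bp upstream of Gata2, which encodes a blood progenitor factor, with 15 and 1 tags and a motif of 18.2 bits, and one in an intron of Onecut2, which encodes a homeodomain factor, with 10 and 1 tags and no motif at p 1e-05. Members in coding exons of the transcription factor genes Rax, Dmrt3 and Klf4 fall outside the name list and are not in this count. No share of all summits was counted for such genes.

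Short words known as sites of other promoter factors were searched on both strands of the 300 bp, as a description. The word GGGCGG of Sp1 and Klf factors was in 53 members (52.5%), in 60.3% of the unique CpG-rich windows outside peaks and in 5.94% of all summits. It overlapped the best CTCF motif in 1 member. TGCCGC, the hexamer of Zfp57, was in 33.7% of the members, 30.4% of the unique windows and 4.18% of all summits, and also overlapped the CTCF motif in 1 member. The Nrf1 word GCGCANGCG was in 10.9%, 6.48% and 0.503%, and the E-box CACGTG in 11.9%, 8.93% and 4.92%, neither of which overlapped a CTCF motif. The Ets word CCGGAAGT was in 1 member (0.990%), against 1.16% of the unique windows and 0.479% of all summits, and TCTCGCGA and AAGATGGCG were in none. These shares were not tested. Those of the 5 words found in members lay nearer to the unique windows than to all summits. The rule favours this order, as each of these words holds a CpG and members and windows were both chosen for CpG.

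Few of the CpG-rich windows held a summit. Of 12654 windows of 300 bp on a fixed grid that met the rule, 104 (0.822%, 0.679 to 0.995) contained one. With a CTCF motif at p 1e-05 the share was 8.20% of 829 windows, and without it 0.304% of 11825, a difference of 7.90 points (6.21 to 9.97). Restricted to windows at least 90% unique, the shares were 9.15% of 732 and 0.493% of 6903. A motif of this strength in CpG-rich DNA thus went with a summit in a minority of the windows.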

How the data were processed

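The tag files that the authors deposited list each aligned 35 bp tag of a library with a count of 1 and no normalization. The deposited CTCF peaks carry a score and the deposited summits a signal, the pileup height in tags, both made by the authors with MACS 1.4 on mm9 (per the labels) from the CTCF tags against IgG. The aligner is not given in the sources used here.

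Sequence and annotation were NCBI m37 (mm9) and GENCODE M1, and 562 summits on other chromosomes were left out. The fragment length of 185 bp came from the 1000 highest scoring peaks. The motif matrix used a pseudocount of 1 with 0.29 as the frequency of A and of T, 0.21 of C and of G. Summits were tested with exact binomial tests adjusted by Benjamini-Hochberg, shares with Wilson and Newcombe intervals and ratios with exact intervals, all at 95%. Ratios of 2 ratios carry normal intervals of their logarithm. The 46 differences of shares were not adjusted for their number. Computation used Python 3.11.15, numpy 2.4.6, scipy 1.17.1 and pandas 2.3.3, and the scripts were tested on simulated data.

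The members, lists and tests were chosen with earlier results of these data known. Members named in the text were the 10 with the highest score, the 5 with the most CpG, the 5 with the best motif, the 5 tallest without a motif at p 1e-04, the 3 farthest from gene starts and up to 3 near each gene list. Of the 5 without a motif, 1 is not reported here. The 3 members that failed the test, those near transcript starts and those in Rax, Dmrt3 and Klf4 were named after their values were seen. Alternatives changed the thresholds of the rule, the window, the tag shift, the scaling and the motif. The comparisons with windows at least 90% unique were chosen after the data were seen.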

Additional observations from a re-analysis of the deposited data

How the results depend on the processing

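Of 73 planned and 4 added alternatives to 14 results, 52 kept the result. No paired analysis was possible because each antibody has 1 library, and 4 alternatives on repeat-masked summits were not run because the genome file marks no repeats. With GC of at least 55% there were 230 members, a ratio of 23.8, an IgG density of 0.615, a motif difference from other distal summits of -6.54 points (-12.9 to -0.760), a window share of 1.23% and a window ratio of 2.09. A CpG ratio of at least 0.75 left 46 members with 45 called, a distance of 5 kb left 57, and scores of at least 100 left 44, all called, with a motif share of 79.5%, a median height of 17 and a median score of 168. Tags within 250 bp gave a ratio of 19.8. Scaling by tags outside peaks gave a window ratio of 2.87. The motif share of 65.3% became 94.1% at p 1e-04, 44.6% at p 1e-06 and 46.5% within 50 bp, and its difference from other distal summits became 9.65, -10.6 and 9.82 points, so the direction turned in the first and last. Each class on its own background gave 0.838 in place of 2.42. Unique windows gave a window ratio of 2.72 and a summit share of 1.32%. The cause of these shifts was not tested, apart from fewer or more members where the rule itself was changed. At 1 library per antibody and a median of 0 IgG tags, a ratio for a single member could not be estimated.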

Other observations

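Among CpG-rich windows outside peaks, the 3 with the most CTCF tags lay between genes on chromosome 17, near AY036118, from 39980101 to 39980400, from 39982201 to 39982500 and from 39980401 to 39980700. They had 35, 23 and 22 CTCF tags and 37, 16 and 26 IgG tags, so both libraries were raised there, and none held a CTCF motif at p 1e-05.

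The word AAGATGGCG, known from Yy1 sites, was in 16.4% of all CpG-rich windows outside peaks but in 0.772% of those at least 90% unique, and in none of the 101 members. No tag of either library fell in 8155 of the 12241 windows outside peaks, against 3552 of the 7254 unique ones.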
